A study of Mus musculus with 2 samples.

Results

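The subunits of the mitochondrial oxidative phosphorylation machinery were compared between the young adult and the growing mouse lens. Members were chosen by gene symbol: every gene that the array annotation gives as the single symbol of a probe set and whose name starts like a structural subunit of complex I (Nduf followed by a, b, c, s or v and a digit), complex II (Sdha to Sdhd), complex III (Uqcr), complex IV (Cox4 to Cox8) or complex V (Atp5), pseudogenes left out. This gave 81 of 18194 named genes, of which 35 carry complex I names, 4 complex II, 8 complex III, 17 complex IV and 17 complex V. RNA came from whole lenses of wild-type C57/BL6 mice at 60 days of age (P60) and at 7 days (P7). The lenses of each age were pooled and hybridised to 1 array, so that no value has a replicate, no test between the ages is possible and all differences are given by size. The number of lenses and animals behind each pool and their sex were not stated by the labels.

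The respiratory chain passes electrons from NADH (complex I) and succinate (complex II) through coenzyme Q to complex III, on through cytochrome c to complex IV and finally to oxygen. Complexes I, III and IV pump protons out of the mitochondrial matrix while they do so, and complex V, the ATP synthase, lets protons return and makes ATP. A few core subunits of complexes I, III, IV and V are encoded in mitochondrial DNA, and all others, including every gene described here by the rule above, are nuclear genes. In the lens, the epithelium and the outer fibre cells hold mitochondria, whereas maturing fibre cells degrade them together with their nuclei, and the tissue draws much of its ATP from glycolysis.

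Each value is a signal intensity per probe set, a group of short probes for 1 transcript, and each gene was read from its probe set with the highest mean log2 signal. Signals of different probe sets cannot be compared with each other, so levels are set against each other only for the same probe set at both ages. Genes whose probe set passed a floor of 103.9, the median over both arrays together, on at least 1 array are called measured, and anything dimmer was set to that floor. Log2 ratios are P60 over P7 throughout. By this measure 77 members were measured, 76 of them on both arrays, and 70 had signals above 1000 on both. The exceptions were Cox7a1, Cox7b2, Cox8b and Ndufb4, which were under the floor on both arrays, and Cox7c, which was above it at P7 only.

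Most subunits had lower signals at P60. Of the 77 measured members 59 had a log2 ratio below 0, against 48.8% of the 13029 measured genes. The differences were small: the median log2 ratio was -0.39, against 0.02 over all measured genes, and 64 members stayed within 2-fold. Cox7c counts among these 64 on a P60 signal raised to the floor. At least 2-fold lower at P60 were 12 members, which is 15.6% of those measured, whereas 9.44% of all measured genes were. This count rests on the brightest probe set of each gene: with the mean ratio over a gene's probe sets 7 of 77 members were at least 2-fold lower, beside 8.23% of 13128 genes, and with the dimmest probe set 8 of 66, beside 10.7% of 9066 genes. Only Ndufa4l2 was at least 2-fold higher, where the share over all measured genes was 11.5%. Among the brighter genes, with signals above 1000 on both arrays, 6.06% of 3549 genes had P60 signals at least 2-fold lower, 8.00% at least 2-fold higher and 46.8% had ratios below 0, with a median of 0.04. The 70 members in that range included 10 that were at least 2-fold lower and 54 that were below 0, with a median of -0.38.

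As a guide to measurement error, probe sets for 1 gene scattered with an SD of 0.585 in log2 ratio over 4239 genes, and of 0.379 over 43 members with at least 2 probe sets above the floor at both ages. Both SDs come from a single pair of arrays, so the spread from pool to pool and from array to array is unknown. Of the measured members 28 were further than 0.585 below 0 and 2 further above it. The share of all measured genes that far from 0 was not computed, so these counts have no background beside them.

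**Figure D1:**
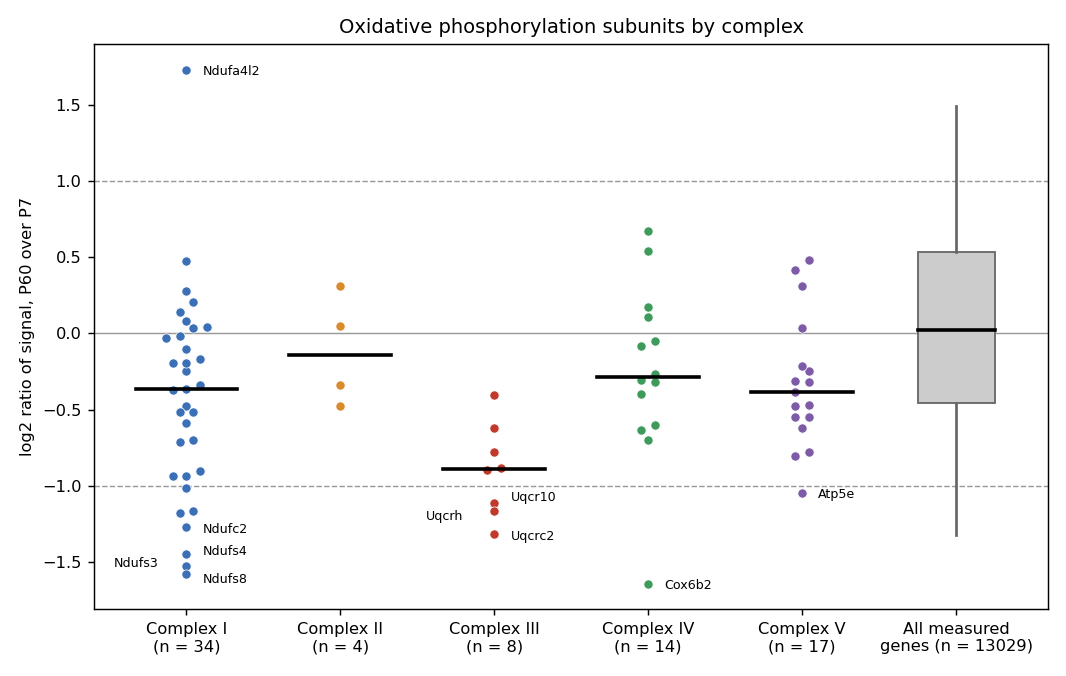
log2 ratio of signal, P60 over P7, of the 77 measured subunits by complex (points, black bar at the median) and of all 13029 measured genes (box from the 25th to the 75th percentile, whiskers from the 5th to the 95th). All 8 complex III genes lie below 0, with a median of -0.89, while the other complexes spread to both sides; dashed lines mark 2-fold.

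Both arrays had a trimmed mean of 500.0, and their median signals were 93.9 at P60 and 113 at P7. Control probe sets at the 5' and 3' ends of a transcript report on how complete the labelled RNA was. Their 5' over 3' ratio was 0.606 at P60 and 0.785 at P7 for beta-actin, 1.29 at P60 and 1.39 at P7 for Gapdh, and 0.0262 at P60 and 0.0995 at P7 for the bacterial dap control RNA. Each of these was lower at P60, and their part in the lower subunit signals was not tested. The lens identity of both pools was checked with 15 lens markers such as Cryaa, Mip and Bfsp1, all of which were above the floor on both arrays and within 2-fold (summed signal 730990 at P60 and 726213 at P7). Vascular endothelial markers were lower at P60 in 8 of 10 measured genes by at least 2-fold, with a summed signal over 12 genes of 1336 at P60 and 5517 at P7, and 8 of the 12 were under the floor at P60. Of 9 measured lens epithelial markers 4 were at least 2-fold higher and 1 lower at P60 (sums of 95363 at P60 and 65009 at P7 over 10 genes). Sums of leukocyte markers were 1882 at P60 and 1932 at P7, with 6 of 12 genes under the floor at P60 and 5 at P7, Ptprc among them at both ages. Of 9 measured leukocyte markers 1 was at least 2-fold higher and 1 lower at P60. Sums of retinal markers were 2581 at P60 and 3426 at P7 (3 of 11 genes under the floor at P60 and 4 at P7). Of 9 measured retinal markers 1 was at least 2-fold higher (Gnat1, 789 at P60 and 12.8 at P7). Another 2 were at least 2-fold lower (Pdc, 258 and 1147, and Nrl, 267 and 869). Sums of erythroid markers were 117 at P60 and 478 at P7, with 5 of 5 genes under the floor at P60 and 3 of 5 at P7. Striated muscle markers summed to 982 at P60 and 1095 at P7, with 10 of 13 genes under the floor at P60 and 7 at P7, Acta1 and Ckm among them at both ages. Of 7 measured muscle markers 1 was at least 2-fold higher and none lower. The part of these cell types in the subunit signals was not tested, and in whole lenses fewer cells of a type and less RNA per cell cannot be told apart.

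**Figure D2:**
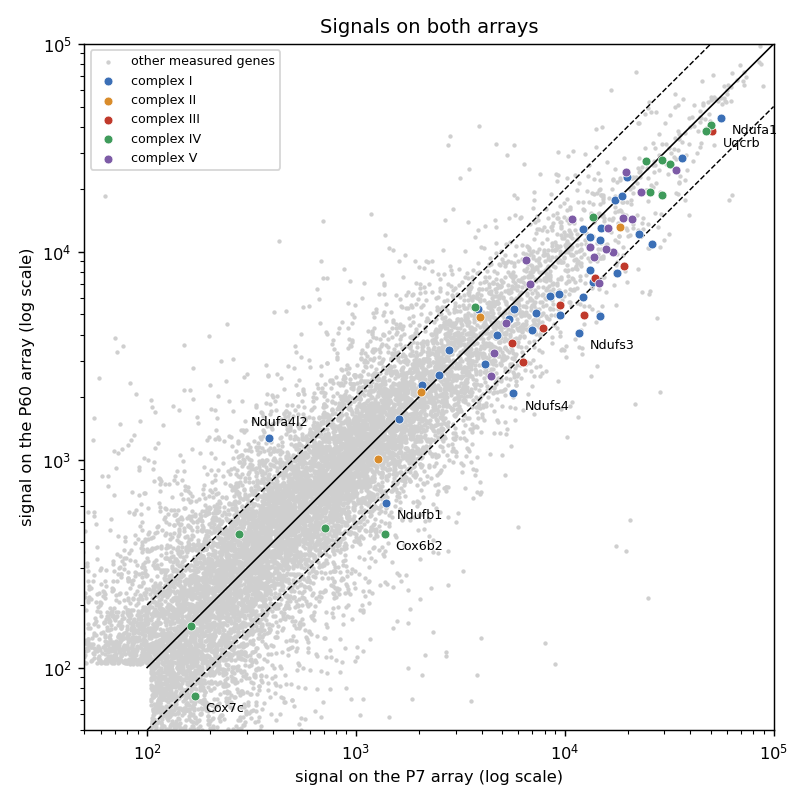
Signal on the P60 array against signal on the P7 array, both on log scales, for the measured subunits (coloured by complex) and the other measured genes (grey); the solid line marks equal signals and the dashed lines 2-fold. Most subunits lie in the upper part of the range and below the solid line, and Ndufa4l2 lies above the upper dashed line.

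Nuclear genes of the respiratory chain are known for promoters with sites for nuclear respiratory factor 1 (NRF1), for ETS factors such as GABP, for YY1 and for oestrogen-related receptors (ERR). RefSeq start sites of build GRCm38.p6, each with 250 bases before and 50 after the start, were available for 66 of the 81 members, in 71 windows. Of these windows 16 (22.5%) held the NRF1 letters GCGC and TGCGC with any 1 base between them, 17 (23.9%) the ETS letters CCGGAAG, 6 (8.45%) the YY1 letters AAGATGGCG and 2 (2.82%) the ERR letters TCAAGGTCA, on either strand. Over all 32851 windows of that length the shares were 4.60%, 8.86%, 1.40% and 0.423% in the same order. The first or last letters of the YY1 motif can also belong to an ETS or NRF1 motif, but no matches overlapped in the windows printed here. At least 1 of the 4 was found for 33 of the 66 genes, among them 6 of the 11 that had a window and a P60 signal lower by 2-fold or more, and 27 of the other 55. In these groups NRF1 letters were found for 1 of 11 and 14 of 55 genes. For ETS the counts were 4 of 11 and 13 of 55, for YY1 1 and 5, and for ERR 0 and 2. A difference between the groups was not tested. A motif match is a description of the letters and does not show that a factor binds.

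Windows of 6 genes are printed because they hold these motifs in genes whose P60 signals ranged from 2.87-fold lower (Ndufs3) to about equal (Sdhd). Capitals mark the motifs. Uqcrh (chr4:116075021-116075320 on the minus strand), 2.24-fold lower at P60, holds 1 ETS motif close to the start. Uqcrc1 (chr9:108936398-108936697 on the plus strand), 1.86-fold lower, holds 2 NRF1 motifs. Ndufs3 (chr2:90904672-90904971 on the minus strand) holds 2 ETS motifs, and Ndufs4 (chr13:114388045-114388344 on the minus strand), 2.72-fold lower, 1 YY1 motif near the end of the window. Cox6a1 (chr5:115348909-115349208 on the minus strand), 1.23-fold lower, holds 2 NRF1 motifs and 1 ETS motif. Sdhd (chr9:50603800-50604099 on the minus strand), 1.03-fold higher, holds 1 NRF1, 1 ETS and 1 ERR motif.
Uqcrh: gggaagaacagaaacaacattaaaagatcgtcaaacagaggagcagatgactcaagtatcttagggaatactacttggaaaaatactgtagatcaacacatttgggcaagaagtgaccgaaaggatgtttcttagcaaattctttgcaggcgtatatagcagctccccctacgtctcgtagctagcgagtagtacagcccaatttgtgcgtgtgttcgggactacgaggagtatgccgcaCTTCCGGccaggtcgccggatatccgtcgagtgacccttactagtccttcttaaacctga
Uqcrc1: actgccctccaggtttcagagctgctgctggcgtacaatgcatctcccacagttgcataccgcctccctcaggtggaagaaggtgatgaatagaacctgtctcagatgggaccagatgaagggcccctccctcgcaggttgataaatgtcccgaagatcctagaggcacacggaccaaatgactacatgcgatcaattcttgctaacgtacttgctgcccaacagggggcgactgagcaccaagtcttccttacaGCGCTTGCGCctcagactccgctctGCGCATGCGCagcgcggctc
Ndufs3: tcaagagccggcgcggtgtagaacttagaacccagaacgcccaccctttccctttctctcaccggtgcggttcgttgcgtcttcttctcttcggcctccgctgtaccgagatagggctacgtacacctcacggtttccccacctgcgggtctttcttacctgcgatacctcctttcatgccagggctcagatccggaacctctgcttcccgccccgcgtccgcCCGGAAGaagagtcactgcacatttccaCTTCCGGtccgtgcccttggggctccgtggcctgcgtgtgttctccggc
Ndufs4: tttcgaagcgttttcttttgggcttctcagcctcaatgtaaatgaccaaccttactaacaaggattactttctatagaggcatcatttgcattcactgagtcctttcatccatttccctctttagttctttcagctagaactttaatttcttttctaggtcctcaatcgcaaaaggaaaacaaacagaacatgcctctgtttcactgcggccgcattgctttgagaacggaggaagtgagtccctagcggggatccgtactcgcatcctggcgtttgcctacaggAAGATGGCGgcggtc
Cox6a1: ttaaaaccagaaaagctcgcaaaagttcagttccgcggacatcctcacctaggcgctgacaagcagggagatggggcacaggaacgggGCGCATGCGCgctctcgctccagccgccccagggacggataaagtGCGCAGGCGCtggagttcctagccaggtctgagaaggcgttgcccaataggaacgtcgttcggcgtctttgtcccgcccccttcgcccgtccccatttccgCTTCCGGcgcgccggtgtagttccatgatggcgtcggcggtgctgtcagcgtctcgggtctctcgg
Sdhd: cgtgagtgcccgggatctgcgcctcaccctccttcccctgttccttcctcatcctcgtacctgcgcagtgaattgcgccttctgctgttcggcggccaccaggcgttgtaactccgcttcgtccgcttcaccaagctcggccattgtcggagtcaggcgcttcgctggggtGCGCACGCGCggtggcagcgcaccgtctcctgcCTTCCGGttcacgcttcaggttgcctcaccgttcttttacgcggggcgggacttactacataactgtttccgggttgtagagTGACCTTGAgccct

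Ratios of complex I, NADH dehydrogenase, ran from -1.58 to 1.73. Of 34 measured genes with complex I names 26 were below 0 (76.5%, beside 48.8% of all measured genes), with a median of -0.37. At least 2-fold lower at P60 were 7 (20.6%, beside 9.44%), and 1 was at least 2-fold higher (beside 11.5%). This excess depended on the probe set. With the mean over probe sets 3 of 34 were at least 2-fold lower, beside 8.23% of all genes. With the dimmest probe set 3 of 30 were, beside 10.7%. The matrix arm of complex I takes up electrons from NADH and hands them to coenzyme Q, and its membrane arm pumps protons. The 14 matrix arm genes had a median of -0.59, with 4 at least 2-fold lower (28.6%) and none higher. The 18 measured membrane arm genes had a median of -0.35, with 3 at least 2-fold lower (16.7%) and none higher. The counts by arm rest on the brightest probe sets. The difference between the arms was not tested.

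Core subunits of the matrix arm, which carry the flavin and iron-sulfur centres or sit beside them, did not move together. Ndufs8, an iron-sulfur protein on the way to coenzyme Q, read 4914 at P60 and 14673 at P7, 2.99-fold lower. That value rests on its brightest probe set, since the other 5 had log2 ratios from -0.53 to 0.51. Ndufs3, a core subunit without a redox centre of its own, read 4073 at P60 and 11707 at P7, 2.87-fold lower, on its single probe set. Ndufv2, an iron-sulfur protein near the entry of electrons, read 8155 at P60 and 13243 at P7, a log2 ratio of -0.70, and its other probe sets gave -0.62 and -0.63. The remaining 3 core subunits were nearly level. Ndufv1, which binds the flavin and takes up electrons from NADH, read 2564 at P60 and 2489 at P7, and Ndufs1, which carries several iron-sulfur clusters, read 1568 and 1605 in the same order. Ndufs7, the last iron-sulfur protein before coenzyme Q, had a ratio of -0.19 on its brighter and 0.40 on its other probe set.

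Accessory subunits of the matrix arm included 2 more genes past 2-fold. Ndufs4, whose loss in mice causes a disease like Leigh syndrome, read 2087 at P60 and 5678 at P7, 2.72-fold lower, with its other probe sets at -0.80 and -0.47. Ndufa7 read 7893 at P60 and 17877 at P7, 2.26-fold lower, and its 5 probe sets lay from -1.18 to -0.32, all below 0. Ndufv3, a small subunit beside the flavin protein, was 1.87-fold lower (12126 at P60 and 22623 at P7). Ndufa5 had a ratio of -0.71 on its brighter probe set and 0.56 on the other, so its direction depends on the probe set. Ndufa12 (0.08) was the highest of the matrix arm, while Ndufa2 (-0.17), Ndufa9 (-0.25) and Ndufa6 (-0.48) lay between these.

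In the membrane arm Ndufc2 was furthest from 0, with 10860 at P60 and 26220 at P7, 2.41-fold lower. Its other bright probe sets gave -1.22 and -1.40, and a dim one went the other way with a ratio of 0.84. Ndufb1 read 620 at P60 and 1387 at P7, 2.24-fold lower, and Ndufs5, which faces the space between the membranes, 6038 and 12180 in the same order, 2.02-fold lower. Both rest on 1 probe set each. Just short of 2-fold were Ndufb6 (4953 at P60 and 9486 at P7, its other probe set at -0.88) and Ndufb8 (7147 at P60 and 13677 at P7). Highest in the membrane arm were Ndufb10 (5320 at P60 and 3829 at P7, a ratio of 0.47) and Ndufa8 (0.28), followed by Ndufa13 (0.21), which is also known as a regulator of cell death under the name GRIM-19. The ratios of Ndufb11 (-0.02) and Ndufa3 (0.03) were close to 0.

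Ndufa4 and Ndufa4l2 bear complex I names, but the Ndufa4 protein is now known as a subunit of complex IV. Ndufa4 read 11392 at P60 and 14672 at P7, a ratio of -0.37. Its relative Ndufa4l2, known in cultured cells as a gene induced by low oxygen through HIF-1, read 1268 at P60 and 382 at P7, 3.31-fold higher, on its single probe set. It was the only measured member past 2-fold in that direction.

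Complex II, succinate dehydrogenase, which also belongs to the TCA cycle, had no gene past 2-fold among its 4, and a median of -0.14. Of all measured genes 9.44% were at least 2-fold lower and 11.5% at least 2-fold higher. The flavoprotein gene Sdha read 4883 at P60 and 3932 at P7, a ratio of 0.31, but its second probe set read 6119 and 1979 in the same order, a ratio of 1.63. The iron-sulfur subunit gene Sdhb read 13190 at P60 and 18358 at P7, a ratio of -0.48. The membrane anchors were at -0.34 (Sdhc, 1004 at P60 and 1270 at P7) and 0.05 (Sdhd, 2125 at P60 and 2054 at P7). Ratios in this complex thus lay on both sides of 0.

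Complex III, the cytochrome bc1 complex, had the lowest median, -0.89, and was the only complex whose measured genes were all below 0 on the probe sets used. Of its 8 genes 3 were lower by 2-fold or more at P60 (37.5%, beside 9.44% of all measured genes). The other 73 members, of which 69 were measured, had a median of -0.34 with 51 below 0. Whether complex III differs from the other complexes was not tested.

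The core protein genes of complex III encode large matrix-side subunits related to processing peptidases. Uqcrc2 read 4942 at P60 and 12323 at P7, 2.49-fold lower, and its other probe set gave nearly the same ratio, -1.24 beside -1.32. Uqcrc1 read 7468 at P60 and 13904 at P7, 1.86-fold lower. The Rieske iron-sulfur protein gene Uqcrfs1, which carries electrons from coenzyme Q towards cytochrome c1, read 3625 at P60 and 5571 at P7, a ratio of -0.62.

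The small accessory subunits of complex III had ratios from -1.16 to -0.41. Uqcrh, the hinge protein between cytochrome c1 and cytochrome c, read 8594 at P60 and 19259 at P7, 2.24-fold lower, and its other probe set was lower still with -1.85. Uqcr10 read 2937 at P60 and 6339 at P7, 2.16-fold lower, with its other probe sets at -1.13 and -0.55. Uqcrq (4292 at P60 and 7901 at P7) and Uqcr11 (5527 at P60 and 9465 at P7) were 1.84-fold and 1.71-fold lower. Uqcrb was nearest to 0 with 38246 at P60 and 50697 at P7, a ratio of -0.41. Cyc1, the cytochrome c1 of this complex, is no member by name and read 4059 at P60 and 4850 at P7, a ratio of -0.26.

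**Figure D3:**
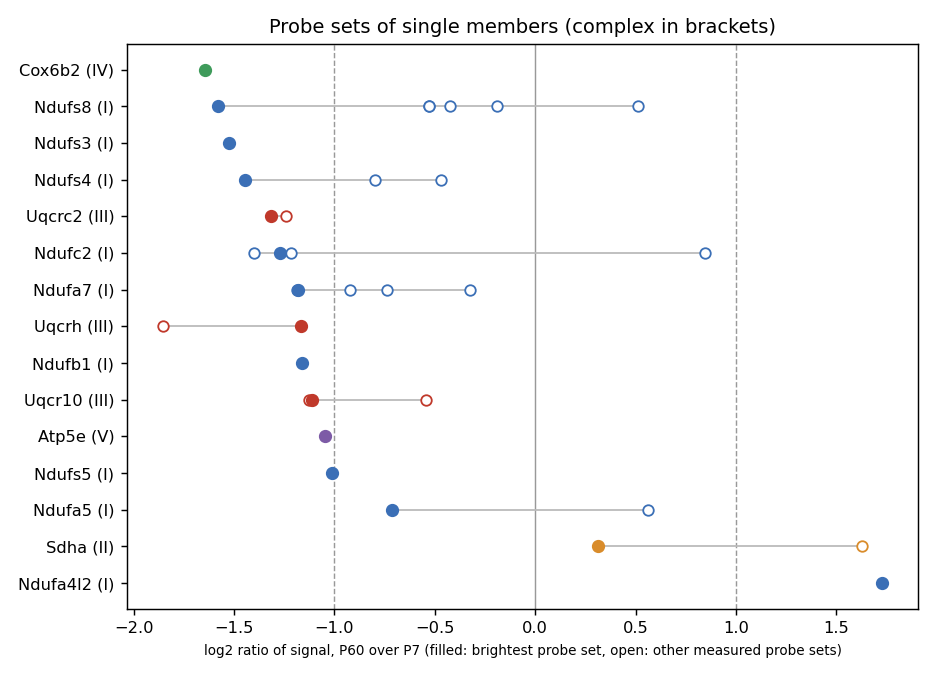
log2 ratio of signal, P60 over P7, of each measured probe set of the 13 members past 2-fold and of Ndufa5 and Sdha (filled points: the brightest probe set, used in the text; open points: the others; dashed lines: 2-fold). The probe sets of Uqcrc2 lie together past 2-fold, while those of Ndufs8 and Ndufc2 reach above 0.

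Complex IV, cytochrome c oxidase, had a median of -0.29 over 14 measured genes. Of these 10 were below 0 (71.4%, beside 48.8% of all measured genes). At least 2-fold lower was 1 (7.14%, under the 9.44% of all measured genes), and none was at least 2-fold higher (beside 11.5%). Of the 9 genes of ubiquitous or single isoforms, the 8 above the floor on both arrays stayed within 2-fold. Cox6b1, on the side that faces cytochrome c, was among the lowest with 18840 at P60 and 29177 at P7, a ratio of -0.63, and its other probe set gave -0.61. Cox5b read 19391 at P60 and 25564 at P7, a ratio of -0.40, with its other measured probe sets from -0.92 to -0.44. Cox5a (27558 at P60 and 29226 at P7) and Cox8a (14679 and 13623 in the same order) were nearly level. Cox4i1, a regulatory subunit, was the highest of these 9, with 27467 at P60 and 24372 at P7, a ratio of 0.17. Cox7c read 73.2 at P60, under the floor, and 169 at P7, which is at least 1.62-fold lower on a dim probe set. Without the floor its P60 signal was 43.4% of that at P7.

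Several subunits of complex IV exist as tissue isoforms. Cox6b2, an isoform known from testis, read 439 at P60 and 1371 at P7, 3.12-fold lower, while the ubiquitous Cox6b1 was 1.55-fold lower. Cox6a2, the heart and skeletal muscle isoform, read 467 at P60 and 708 at P7, a ratio of -0.60, and its partner Cox6a1 read 40733 and 50247 in the same order, a ratio of -0.30. Cox8c, known from testis, read 439 at P60 and 276 at P7, a ratio of 0.67, and Cox8a stood at 0.11. Cox4i2, known from lung, was dim and level with 158 at P60 and 163 at P7. Cox7a2 read 37941 at P60 and 47247 at P7, a ratio of -0.32. The muscle isoform Cox7a1 was under the floor with 4.22 at P60 and 82.1 at P7, as were Cox8b (12.2 at P60 and 11.5 at P7) and Cox7b2 (5.16 at P60 and 47.9 at P7), so no ratio is given for them. Cox7a2l, described as a factor for supercomplexes of complexes III and IV, read 5404 at P60 and 3715 at P7, a ratio of 0.54. Its other probe sets were at 0.39 and 0.66. Cox7a2l thus lay on the opposite side of 0 from Cox7a2 on each of its probe sets.

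Complex V, the ATP synthase, had a median of -0.39 over 17 measured genes. Of these 13 were below 0 (76.5%, beside 48.8% of all measured genes). At least 2-fold lower was 1 (5.88%, under the 9.44% of all measured genes), and none was at least 2-fold higher (beside 11.5%). The F1 head of complex V, which makes ATP, was split. The α and β subunits that form the head's ring were at 0.04 (Atp5a1, 6988 at P60 and 6807 at P7) and -0.31 (Atp5b, 12960 at P60 and 16081 at P7). A dimmer probe set of Atp5a1 stood apart with 1049 at P60 and 283 at P7, a ratio of 1.89, while another gave 0.04. In the central stalk Atp5c1 (γ) stood at 0.31 (24222 at P60 and 19569 at P7) and Atp5d (δ) at 0.42 (14382 at P60 and 10775 at P7). Atp5e (ε), of the same stalk, read 7098 at P60 and 14665 at P7, 2.07-fold lower, on its single probe set. The median of these 5 genes was 0.04.

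All 4 genes of the peripheral stalk, which keeps the head from turning with the rotor, and all 5 accessory genes of the membrane part were below 0 on the probe sets used. In the stalk the ratios ran from -0.62 for Atp5o, which joins the stalk to the head (10281 at P60 and 15834 at P7), to -0.25 for Atp5h. In the membrane part they ran from -0.80 for Atp5md (2539 at P60 and 4427 at P7) and -0.78 for Atp5l (9932 at P60 and 17068 at P7), subunits tied to the pairing of ATP synthases, to -0.22 for Atp5mpl. Atp5j2 (-0.55) had its other probe sets at -0.75 and 0.34.

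The c ring, the rotor in the membrane, is built from 1 mature protein that 3 genes encode with different import sequences. Atp5g1 read 3278 at P60 and 4562 at P7, a ratio of -0.48, with a dim second probe set at 0.16. Atp5g3 read 24659 at P60 and 34113 at P7, a ratio of -0.47. Atp5g2 went the other way with 9133 at P60 and 6547 at P7, a ratio of 0.48. The ratios of these genes for the same protein thus lay on both sides of 0. Each was within the SD of 0.585 between probe sets over all genes and beyond the SD of 0.379 over the members.

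Agreement between probe sets could be looked at for 44 members with 2 or more measured probe sets. All of them were below 0 for 24 members and above 0 for 9, and 11 members had probe sets on both sides of 0, the widest ranges being those of Ndufc2 (2.24), Ndufs8 (2.09) and Ndufa5 (1.28). The shares over all genes were not computed, so these counts have no background. Some probe sets above 0 were dim, with P7 signals raised to the floor. They include those of Ndufc2 (186 at P60 and 25.1 at P7), Atp5j2 (131 and 61.5) and Ndufb2 (125 and 80.8). Among the 12 members at least 2-fold lower, 7 had 2 or more measured probe sets, of which 5 had every probe set below 0 and 2, Uqcrc2 and Uqcrh, had every one at least 2-fold lower. Both counts include the probe set that put the gene past 2-fold. The members closest to the 2-fold limit were Ndufs5 (-1.01) and Atp5e (-1.05) on the inner side and Ndufb6 and Ndufb8 (both -0.94) on the outer side.

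**Figure D4:**
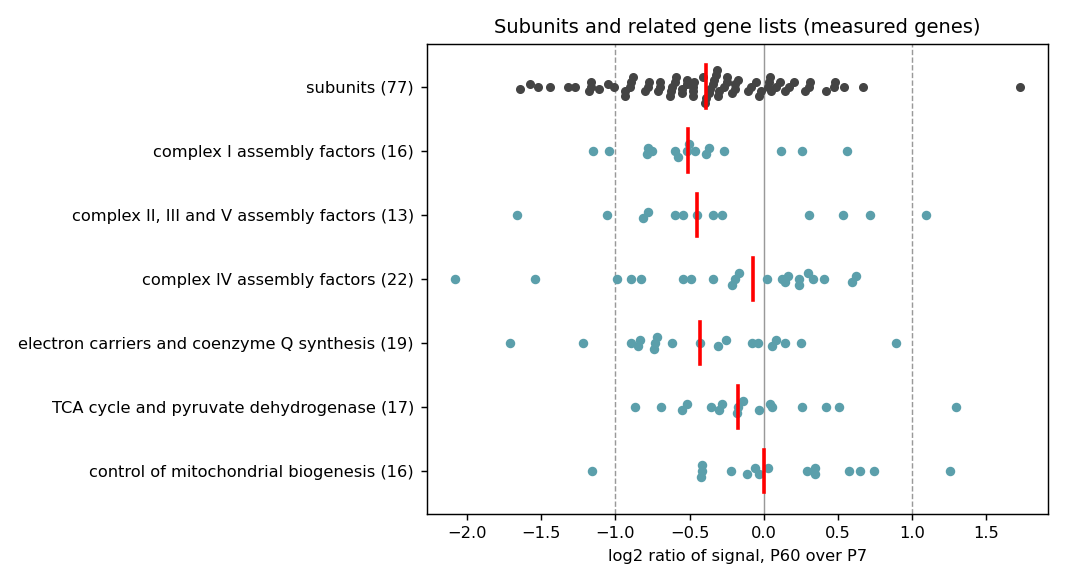
log2 ratio of signal, P60 over P7, of the measured subunits and of 6 lists of related genes (points; red bar at the median; number of measured genes in brackets; dashed lines at 2-fold). The medians run from -0.51 for complex I assembly factors to 0.00 for control genes of mitochondrial biogenesis.

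Other genes of the pathway build the complexes or feed the chain. Of 51 measured assembly factors 6 were at least 2-fold lower (11.8%, near the 9.44% of all measured genes) and 1 was at least 2-fold higher (beside 11.5%). Below 0 were 33 (64.7%, beside 48.8% of all measured genes), with a median of -0.37. Complex I assembly factors had a median of -0.51 with 13 of 16 below 0. The lowest was Acad9, which read 367 at P60 and 815 at P7, 2.22-fold lower, although its other probe sets lay between -0.16 and 0.43, and the highest was Ndufaf8 (0.56). Assembly factors of complexes II, III and V had a median of -0.45, with 9 of 13 below 0. They ranged from Fmc1, whose relative in yeast is needed to assemble the ATP synthase (662 at P60 and 2102 at P7, 3.17-fold lower), to Uqcc1, needed for complex III (644 at P60 and 301 at P7, 2.14-fold higher, with its other probe set at -1.58). Complex IV assembly factors stood nearer to 0, with a median of -0.07 and 11 of 22 below it. Their lowest was Cox16 (507 at P60 and 2148 at P7, 4.24-fold lower), which helps to place the copper-bearing Cox2 subunit, and their highest Surf1 (0.62).

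Electron carriers and enzymes of coenzyme Q synthesis had a median of -0.43, with 14 of 19 below 0 (73.7%, beside 48.8% of all measured genes). At least 2-fold lower were 2 (10.5%, near the 9.44% of all measured genes), and none was at least 2-fold higher (beside 11.5%). Cycs, which encodes cytochrome c, read 6657 at P60 and 11126 at P7, a ratio of -0.74 with its other probe sets between -0.45 and 0.14. The methyltransferase gene Coq3 was lowest (162 at P60 and 532 at P7, 3.28-fold lower), and Coq8a was highest (0.89). The TCA cycle and pyruvate dehydrogenase had a median of -0.18, with 11 of 17 below 0 (64.7%). None was at least 2-fold lower, beside 9.44% of all measured genes, and 1 was at least 2-fold higher, beside 11.5%. Suclg1 was lowest (-0.87) and Suclg2, the GTP-forming subunit of succinyl-CoA ligase, highest with 4600 at P60 and 1871 at P7, 2.46-fold higher.

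Control genes of mitochondrial biogenesis had a median of 0.00, with 8 of 16 below 0 (50.0%, near the 48.8% of all measured genes). The nuclear receptor gene Esrra, an activator of respiratory genes, read 513 at P60 and 215 at P7, 2.39-fold higher, and its coactivator Ppargc1a stood at 0.75 (227 at P60 and 135 at P7). Gabpb1, a subunit of the ETS factor GABP, read 260 at P60 and 581 at P7, 2.24-fold lower. Its partner gene Gabpa stood at 0.57, but at -0.37 on its other measured probe set. Nrf1 (-0.22), Yy1 (0.30) and Tfam, which packs and transcribes mitochondrial DNA (-0.42), stayed within 2-fold. The other measured probe sets of Yy1 lay between -0.45 and 0.70. Of the subunits encoded in mitochondrial DNA, ND5, a proton-pumping subunit of complex I, was named on 1 probe set, and it read 15094 at P60 and 39458 at P7, 2.61-fold lower. That gene was added after its value was seen.

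**Figure D5:**
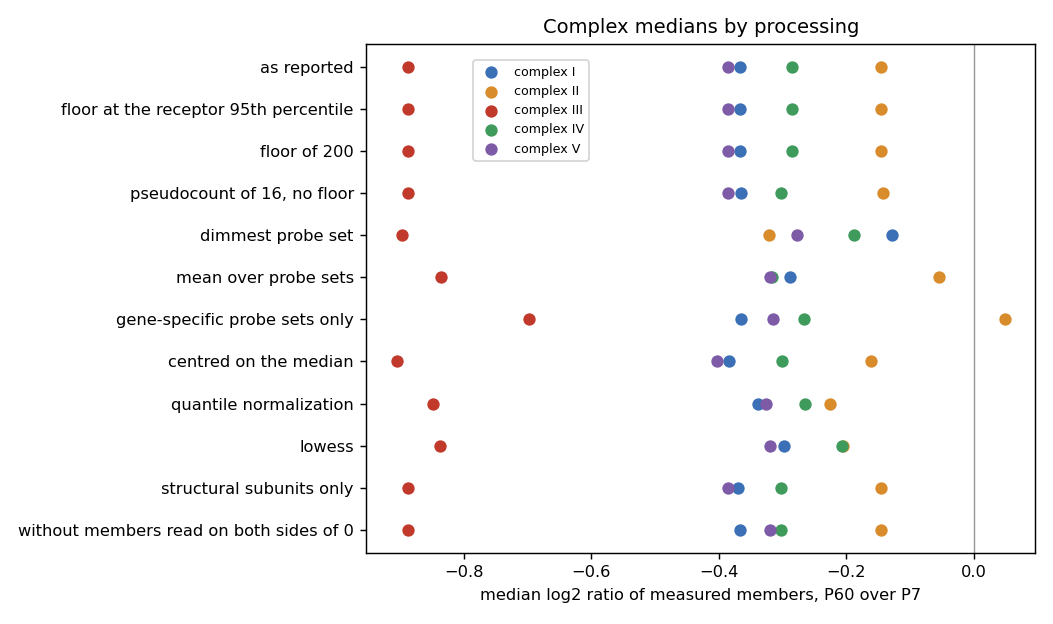
Median log2 ratio, P60 over P7, of the measured members of each complex as reported and under other ways to process the values (1 line each). The complex III median lies between -0.91 and -0.70 in each of them and the medians of the other complexes between -0.40 and 0.05.

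The order of the complexes in these medians was kept only in part when the values were processed differently. Complex III stayed lowest in each setting that was run, whereas the other complexes changed places. Of single genes, Uqcrc2, Uqcrh, Ndufs3, Ndufb1 and Cox6b2 were at least 2-fold lower in every setting that gave them a value. For these genes, however, raising the floor and changing the members or the background left each ratio as it was. Ndufs3, Ndufb1 and Cox6b2 have 1 probe set each, so the choice of probe set could not alter their ratios.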

How the data were processed

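RNA of pooled lenses at P60 and P7 was labelled with biotin and hybridised to 1 array per age, per the labels' protocols. The authors deposited linear signal intensities for 45101 probe sets, made with MAS5 per the submitters' processing notes. Its version and settings were not stated there, and detection calls were not used here. Trimmed by 2% at each end, the mean intensity was 500.0 on both arrays. Names came from the platform annotation (34958 probe sets with 1 symbol, 932 with several, 9211 with none), updated by gene number, and 9 probe sets with a subunit among several symbols were not used.

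From these intensities log2 ratios of P60 over P7 on floored values, folds, medians and counts past 2-fold were computed with pandas 2.3.3 and NumPy 2.4.6, with no p-values. The ratio, floor and count steps were tested on simulated data. Promoter windows are RefSeq's. Members, lists, groupings within complexes and motifs were chosen with earlier results of these data known. Members are named if past 2-fold, if among the 2 highest or lowest of a complex, as tissue isoforms, or for wide probe set ranges, and in the related lists the highest and the lowest gene are named. Further genes are named by role, with their values already seen. The number of arrays limits the precision.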

Additional observations from a re-analysis of the deposited data

How the results depend on the processing

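With 1 array per age no array could be left out, and no paired analysis was possible because each age has a single pool. Beside the values as reported, 11 alternatives and 1 more chosen after seeing the data (leaving out members whose probe sets disagreed in sign) were tried, on the floor, the probe set, the scaling, the members and the background. Of 276 medians, counts and shares under them 20 were counted as moved, but many of the others could not move. The change of background left every value of the members and lists as it was. The changes of members left the values of all genes and of the lists as they were. The complex II median ran from -0.32 to 0.05 without being counted as moved. The members' median stayed between -0.40 and -0.28.

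With the dimmest probe set of each gene the members' median was -0.28 and that of complex I -0.13, complex I had 3 genes at least 2-fold lower, 2 members were at least 2-fold higher, and the medians of the complex II, III and V assembly factors and of the TCA cycle were -0.284 and -0.033. Ndufc2 (0.84) and Ndufs8 (0.51) reversed there, each on its dimmest probe set, and Ndufa5 (0.56) and Atp5g1 (0.16) also changed sign. So did Atp5j2 (0.335), Ndufb2 (0.269), Ndufs7 (0.399), Ndufb11 (0.175), Ndufv1 (-0.116) and Cox5a (0.001). With the mean over probe sets 7 members were at least 2-fold lower, 3 of them in complex I, beside 8.23% of all genes, and the TCA cycle median was -0.011. When probe sets with a letter before the ending _at of their names (such as _a_at or _s_at) were left out, 57 members were measured. There the members' median was -0.32, that of complex II turned to 0.05, and complex V had 0 genes at least 2-fold lower. Atp5e and Sdhc had no value there, whereas Sdha, Sdhb and Sdhd kept their ratios. The medians of the complex IV assembly factors and of the electron carriers were -0.27 and -0.26. Quantile normalization and a lowess correction also left 0 such genes in complex V, where Atp5e lay near the limit. With a pseudocount of 16 and no floor 2 members were at least 2-fold higher, 4 complex IV genes and 16.1% of all genes at least 2-fold lower. Without Ndufa4l2 and Cox7a2l 0 members were at least 2-fold higher. Among genes above 1000 on both arrays 6.06% were at least 2-fold lower. The causes were not tested. Signals near the floor, such as those of Cox7c and Cox4i2, carry little information on a ratio.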
